A study of Homo sapiens with 12 samples.

Results

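Interferon-stimulated genes are the genes that cells switch on after an interferon binds its receptor. A list of 39 of them was followed in 2 human pancreatic cancer cell lines, L3.6pl and FG, each grown in hypoxia and in normoxia. Members were found by gene symbol in the platform annotation, and of the probe sets naming exactly 1 gene, the brightest on average stood for its gene. That left 38 measured members among 19775 measured genes, and STAT2 was not analysed here. Each of the 4 groups held 3 Affymetrix arrays: L3.6pl in hypoxia, L3.6pl in normoxia, FG in hypoxia and FG in normoxia. Cultures were started from frozen stock, were not passaged and typically grew for 9 days in DMEM with serum. The hypoxia cultures spent their last 24 h at 1% oxygen, and the normoxia cultures stayed untreated. No interferon, virus or other agent is named for any group. The series compares lines that differ in metastatic potential. L3.6pl was derived by selecting metastatic cells in mice. Each side of the line comparison is 1 cell line and stands for no wider class of tumours. The labels do not say whether the 3 arrays of a group came from separate cultures, so every p-value below measures the spread between these arrays only.

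Type I and type III interferons act through receptor-bound kinases that assemble IRF9 with phosphorylated partners into a factor binding the interferon-stimulated response element, a DNA sequence in the promoters of most of these genes. Interferon gamma signals to a different sequence, the gamma-activated sequence. The induced proteins sense viral RNA, block entry, translation or replication of viruses, or attach the ubiquitin-like protein ISG15 to other proteins. Many epithelial tumour lines transcribe some of these genes in culture with no interferon added.

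The promoters were read from RefSeq windows of assembly GRCh38.p14, which span 250 bases before to 50 bases after each annotated gene start. Of the 38 measured members, 30 had a window. The response element was searched on both strands as GAAANNGAAA, in which N is any base. It was present for 20 of the 30 members, or 66.7%, against 3.98% of the 15384 measured genes with a window. The gamma-activated sequence, searched as TTCNNNGAA on both strands, was found for 9 of the 30 members (30.0%), against 8.97% of those genes. The hypoxia response core, ACGTG or GCGTG on either strand, was found for 13 of the 30 (43.3%), against 62.3%. Overlapping matches counted separately. A match is a run of letters and no shown binding site, and a window with no match says only that those letters are not in it. The 7 sequences here belong to members whose levels differed in contrasting ways, described further on. Each gives 160 bases before the gene start, 5′ to 3′ along the gene, with matches to the response element or its reverse complement in capitals. IFIT3, chr10:89332369-89332528 (plus strand), and HERC5, chr4:88456959-88457118 (plus strand), were lower in hypoxia in both lines. ISG15, chr1:1013337-1013496 (plus strand), and GBP1, chr1:89065209-89065368 (minus strand), were higher in hypoxia in FG. IFI6, chr1:27672193-27672352 (minus strand), and ISG20, chr15:88638856-88639015 (plus strand), were higher in L3.6pl than in FG in both oxygen conditions. BST2, chr19:17405631-17405790 (minus strand), was lower in L3.6pl than in FG in normoxia.
IFIT3: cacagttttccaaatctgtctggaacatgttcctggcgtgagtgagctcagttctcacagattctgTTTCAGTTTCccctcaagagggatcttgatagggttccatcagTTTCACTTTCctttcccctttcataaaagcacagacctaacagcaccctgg
HERC5: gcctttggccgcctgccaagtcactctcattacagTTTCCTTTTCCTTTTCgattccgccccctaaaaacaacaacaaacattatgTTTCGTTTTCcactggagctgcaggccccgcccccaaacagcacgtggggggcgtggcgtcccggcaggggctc
ISG15: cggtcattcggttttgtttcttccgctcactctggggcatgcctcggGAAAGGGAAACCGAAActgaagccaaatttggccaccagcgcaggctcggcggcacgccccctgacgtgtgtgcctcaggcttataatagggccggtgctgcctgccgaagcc
GBP1: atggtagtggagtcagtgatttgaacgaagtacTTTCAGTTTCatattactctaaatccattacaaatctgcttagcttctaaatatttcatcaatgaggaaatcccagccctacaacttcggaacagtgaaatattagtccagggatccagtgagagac
IFI6: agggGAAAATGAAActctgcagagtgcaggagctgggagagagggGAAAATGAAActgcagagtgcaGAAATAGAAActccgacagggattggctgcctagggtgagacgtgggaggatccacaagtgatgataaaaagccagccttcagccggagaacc
ISG20: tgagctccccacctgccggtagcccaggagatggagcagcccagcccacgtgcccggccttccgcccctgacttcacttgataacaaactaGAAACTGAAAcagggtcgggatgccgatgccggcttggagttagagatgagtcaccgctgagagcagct
BST2: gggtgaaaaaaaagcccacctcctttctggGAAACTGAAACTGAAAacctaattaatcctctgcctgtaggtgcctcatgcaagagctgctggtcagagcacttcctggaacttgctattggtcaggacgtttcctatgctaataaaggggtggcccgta

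The capitals differ in number and spacing among these promoters. IFIT3 had 2 separate matches, HERC5 had 3, of which a pair overlapped, and IFI6 had 3 separate matches. ISG15 and BST2 had 2 overlapping matches each, and GBP1 and ISG20 had 1 each. Members with opposite hypoxia values thus both held the element, since it was present in the windows of IFIT3 and HERC5 and in those of ISG15, MX1 and GBP1. Among members called in a comparison, the windows of CMPK2, UBE2L6, OAS1, IFI35, IFI16 and IRF9 had no match to these letters.

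**Figure D1:**
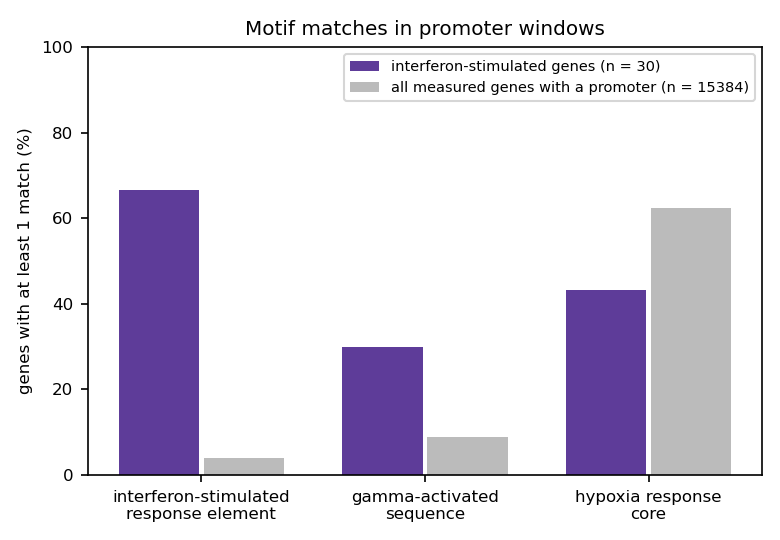
Share of genes with at least 1 match to each of 3 motifs in their promoter windows, in percent, for 30 interferon-stimulated genes (purple) and 15384 measured genes (grey). The response element was present for 66.7% of the members and 3.98% of the measured genes, and the hypoxia response core for 43.3% and 62.3%.

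The arrays were checked before the genes were compared. Within its group, each array correlated with the other two at a mean r of 0.978 to 0.993 over all genes. FG normoxia 1 was lowest at 0.978, and L3.6pl hypoxia 3 followed at 0.981. The 7 measured markers of epithelial cells had log2 intensities of 6.45 to 13.59 over all arrays, with EPCAM between 11.96 and 12.46. The 7 measured markers of blood and immune cells lay between 3.09 and 6.83 on every array, with PTPRC, which encodes CD45, between 4.12 and 4.52. Of 8 fibroblast and endothelial markers, DCN, PDGFRB, CDH5 and VWF stayed between 2.90 and 5.38, and LUM reached 6.29 on L3.6pl hypoxia 3. COL3A1 had values of 5.46 to 5.95 on the L3.6pl arrays, against 9.99 to 11.85 on the FG arrays, COL1A1 lay between 8.40 and 11.41, and PECAM1 between 6.66 and 8.52. The part of these differing markers in the line comparisons below was not tested. Fewer cells that express a gene and less of its RNA per cell cannot be told apart in bulk RNA.

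All levels below are log2 of the authors' normalized intensities, and fold changes are differences between group means of these values, given with their standard error (SE) and n = 3 arrays a group. Tests are two-sided, from 1 limma model of all 12 arrays, adjusted over the 19775 genes by Benjamini and Hochberg, and a gene is called at an adjusted p below 0.05. With 3 arrays against 3, an exact permutation test of a single gene could not go below p = 0.1. Levels of different genes come from different probes and are not set against each other.

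The members lay highest in normoxic L3.6pl cells more often than in any other group. That group had the highest mean for 20 of the 38 members, or 52.6%, against 28.8% of all genes. FG in hypoxia was highest for 9 members (23.7%, against 23.2%), FG in normoxia for 5 (13.2%, against 23.7%) and L3.6pl in hypoxia for 4 (10.5%, against 24.3%). FG in hypoxia had the lowest mean for 20 members, against 31.8% of all genes. L3.6pl in hypoxia was lowest for 9 members (25.6% of all genes), FG in normoxia for 7 (22.2%) and L3.6pl in normoxia for 2 (20.4%). With each gene centred on its mean over the 12 arrays, the median member lay at -0.06, -0.23 and 0.17 on the hypoxic L3.6pl arrays, against 0.38, 0.22 and 0.40 on the normoxic L3.6pl arrays. On the FG arrays it lay at -0.32, -0.25 and -0.16 in hypoxia, against -0.15, -0.15 and 0.08 in normoxia. All 3 normoxic L3.6pl arrays were thus above the other 9 arrays on this measure, and L3.6pl hypoxia 3 and FG normoxia 3 came next. These medians describe the list and were given no test.

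**Figure D2:**
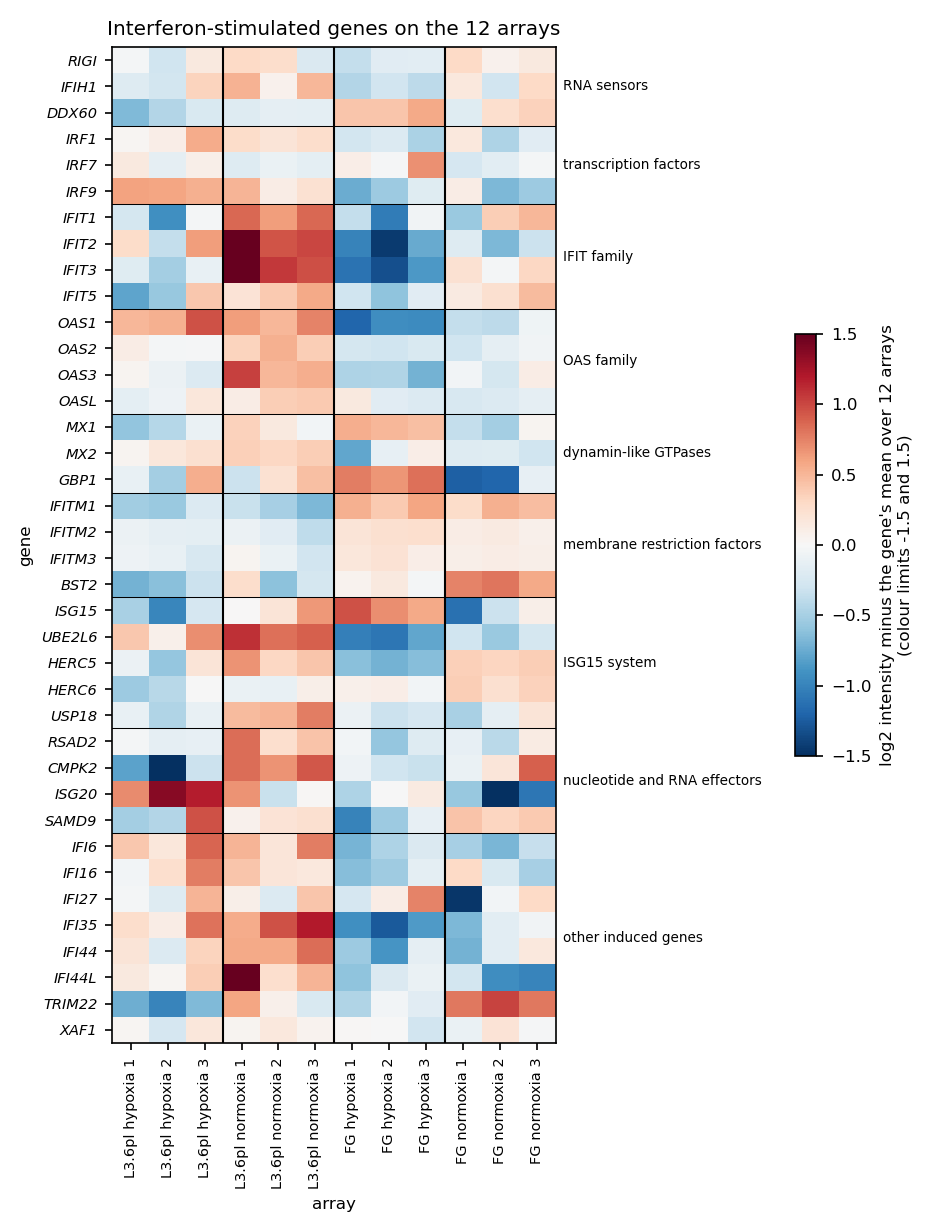
Log2 intensity of the 38 measured members on the 12 arrays, each minus the gene's own mean, with genes grouped by role and arrays by group (red above the mean, blue below, colours limited at -1.5 and 1.5). The IFIT2 and IFIT3 rows are reddest on the normoxic L3.6pl arrays and bluest on the hypoxic FG arrays, and the ISG15, MX1 and GBP1 rows are red on the hypoxic FG arrays.

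In L3.6pl cells, hypoxia lowered 7 members and raised none that passed the test: CMPK2, IFIT3, TRIM22, USP18, OAS3, HERC5 and OAS2 were lower. The 7 are 18.4% of the members, against 6.86% of all genes called in this comparison, and 2.97% called lower. Limma called 0 members higher, against 3.89% of all genes, while 17 members in either direction had an unadjusted p below 0.05. The median member had a log2 fold change of -0.33, against -0.02 for all genes. All 3 hypoxic arrays lay below all 3 normoxic arrays for 16 members (42.1%, against 12.8% of all genes) and above them for 2 members (5.26%, against 11.5%). The count rests on single arrays: it was 2 without L3.6pl hypoxia 2, 3 without L3.6pl normoxia 2, 4 without L3.6pl normoxia 3 and 12 without L3.6pl hypoxia 3. The all-gene count moved as well, to 569, 508, 734 and 2436 in the same order. Without FG normoxia 1, L3.6pl normoxia 1 and L3.6pl hypoxia 3, 1 member was called higher and 17 lower, and the all-gene count was 4179, against 1357 with all arrays.

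In FG cells, hypoxia moved members both ways. GBP1, ISG15 and MX1 were higher, and IFIT3, TRIM22, HERC5, OAS1 and UBE2L6 were lower. The 8 called are 21.1% of the members, against 10.7% of all genes, with 4.24% of all genes called higher and 6.47% lower. The median member had a log2 fold change of -0.15, against -0.03 for all genes, and 13 of the 38 had a positive one. The hypoxic arrays lay above the normoxic arrays for 7 members (18.4%, against 10.9% of all genes) and below them for 13 (34.2%, against 17.1%). Leaving out FG hypoxia 2 reduced the 8 calls to 5, and the all-gene count from 2117 to 1029. Without FG normoxia 1, L3.6pl normoxia 1 and L3.6pl hypoxia 3, 5 members were called higher and 11 lower, and the all-gene count was 3871, against 2117 with all arrays. The 3 members called in both lines, IFIT3, HERC5 and TRIM22, were lower in both. The share of all genes called in both lines was not computed, so whether this overlap is unusual is not known.

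**Figure D3:**
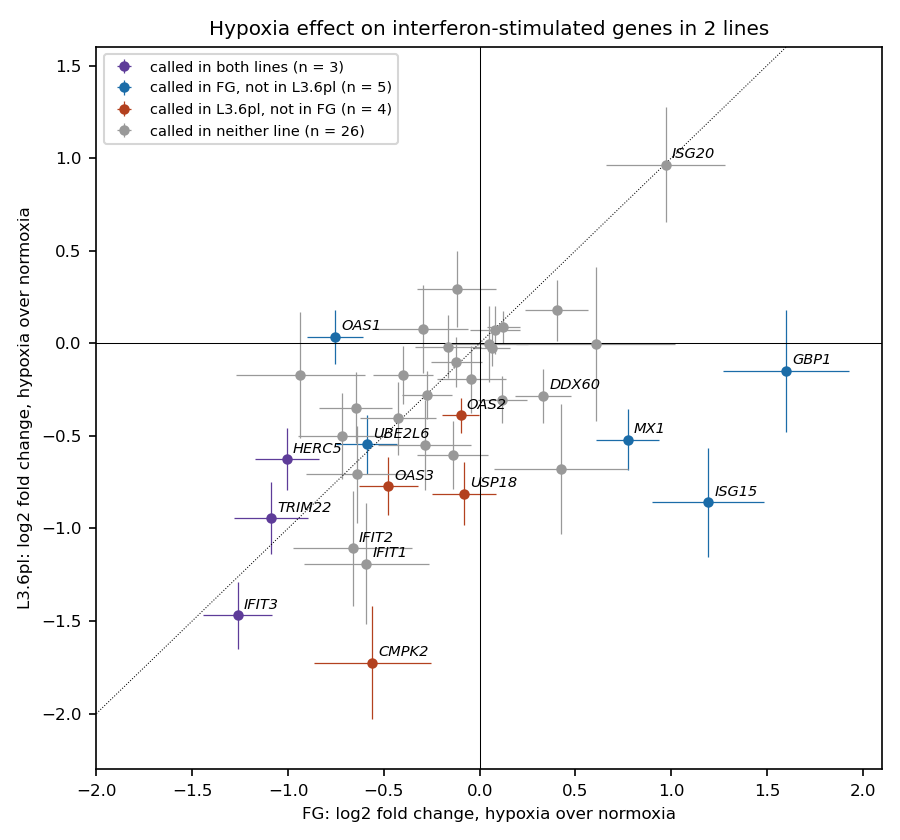
Log2 fold change of hypoxia over normoxia for the 38 members, FG on the x axis and L3.6pl on the y axis, with SE whiskers and a dotted line of equal change. IFIT3, HERC5 and TRIM22 (purple) lie at negative values on both axes, while ISG15 and MX1 lie at positive FG values and negative L3.6pl values.

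Between the lines in normoxia, 13 members were higher and 4 lower in L3.6pl than in FG. The higher ones were IFIT2, IFI44L, UBE2L6, ISG20, IFI35, IFIT3, IFI6, OAS1, IFI44, OAS3, USP18, OAS2 and OASL, and the lower ones were IFITM1, BST2, TRIM22 and IFITM2. These 17 are 44.7% of the members, against 10.7% of all genes called, 5.16% higher and 5.54% lower. The median member differed by 0.49, against 0.02 for all genes, and 29 members had a positive value. All 3 L3.6pl arrays lay above all 3 FG arrays for 18 members (47.4%, against 15.0% of all genes) and below them for 7 (18.4%, against 13.1%). In hypoxia, 9 members were higher and 5 lower in L3.6pl, which is 36.8% of the members, against 16.7% of all genes, 10.0% higher and 6.72% lower. Here the higher members were OAS1, IFI35, UBE2L6, IFIT2, ISG20, IRF9, IFI6, IFIT3 and IFI16, the lower ones ISG15, IFITM1, DDX60, MX1 and IFITM2, and the median was 0.17, against 0.02 for all genes. The L3.6pl arrays lay above the FG arrays for 15 members (39.5%, against 18.2%) and below them for 9 (23.7%, against 13.9%). The normoxia count was 10 without FG normoxia 2 and 11 without L3.6pl normoxia 3. The all-gene counts there were 1383 and 1354, against 2116 with all arrays. Without each array in turn the hypoxia count stayed between 10 and 17, and the all-gene count between 2142 and 3813 (3310 with all arrays).

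Same-numbered arrays of the lines deviated together within each oxygen condition, so the line comparisons were also fitted with the replicate number as a block. With the block, 20 members were higher and 4 lower in L3.6pl in normoxia, against 23.1% of all genes called, 12.2% higher and 10.9% lower. In hypoxia, 16 members were higher and 9 lower, against 30.0% of all genes, 17.9% higher and 12.1% lower. Every line call made without the block was also made with it. IRF9, IFIT1, MX2, GBP1, ISG15, RSAD2 and IFI16 were added in normoxia, all higher in L3.6pl (adjusted p from 0.00777 for GBP1 to 0.0455 for IFI16). IRF1, OAS2, OAS3, MX2, HERC5, SAMD9 and IFI44 were added in hypoxia as higher, and GBP1, IFITM3, BST2 and TRIM22 as lower (adjusted p from 0.00616 for IFI44 to 0.0433 for TRIM22).

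**Figure D4:**
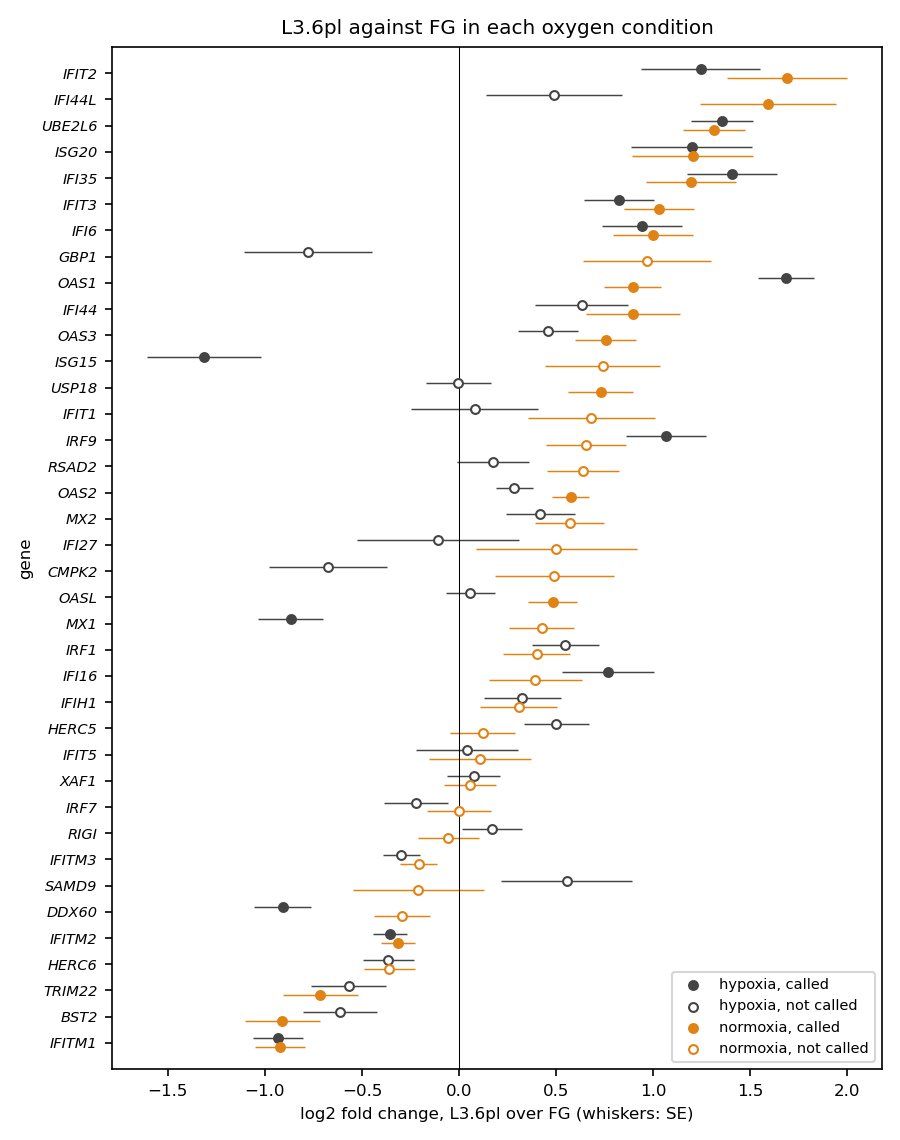
Log2 fold change of L3.6pl over FG for each member in hypoxia (dark) and normoxia (orange), with SE whiskers, ordered by the normoxia value; filled points passed the test without the block. IFIT2 is at the top at 1.24 and 1.69, IFITM1 at the bottom at -0.93 and -0.92, and ISG15, MX1 and GBP1 have negative values in hypoxia and positive values in normoxia.

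The IFIT genes, 4 members on chromosome 10 that encode proteins binding viral RNA and holding back translation, had negative hypoxia values in both lines. IFIT3 had levels of 6.57, 6.24 and 6.65 in hypoxic L3.6pl cells, against 8.32, 7.82 and 7.73 in normoxic L3.6pl cells. In hypoxic FG cells its levels were 5.66, 5.44 and 5.90, against 6.99, 6.73 and 7.07 in normoxic FG cells. Neither pair of groups overlapped, and the hypoxic FG arrays were the lowest of all. Hypoxia lowered IFIT3 by a log2 fold change of -1.47 ± 0.181 in L3.6pl (fold 0.361, adjusted p = 0.0014) and of -1.26 ± 0.181 in FG (fold 0.416, adjusted p = 0.00195). It was higher in L3.6pl than in FG by 0.82 ± 0.181 in hypoxia (adjusted p = 0.0103) and by 1.03 ± 0.181 in normoxia (adjusted p = 0.00422). No omission of an array ended these 4 calls. The other probe set of IFIT3 had the same signs with smaller sizes, -0.67 in L3.6pl (adjusted p = 0.0253) and -0.29 in FG (adjusted p = 0.261), and between the lines 0.25 in hypoxia (adjusted p = 0.326) and 0.63 in normoxia (adjusted p = 0.0243).

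IFIT2 levels were 7.25, 6.61 and 7.60 in hypoxic L3.6pl cells and 8.89, 7.92 and 7.98 in normoxic ones. In FG cells they were 5.98, 5.54 and 6.22 in hypoxia and 6.78, 6.30 and 6.65 in normoxia. IFIT2 was 2.37-fold higher in L3.6pl than in FG in hypoxia (adjusted p = 0.0186) and 3.22-fold higher in normoxia (adjusted p = 0.00522), with no overlap between the lines in either condition. The hypoxia call between the lines was lost, at an adjusted p of 0.0511 to 0.0802, without FG hypoxia 1, FG hypoxia 2, L3.6pl hypoxia 1 or L3.6pl hypoxia 3. The hypoxia effect on IFIT2 missed the threshold at -1.11 ± 0.309 in L3.6pl (adjusted p = 0.058) and -0.66 ± 0.309 in FG (adjusted p = 0.228), although no hypoxic array overlapped a normoxic one in either line. Its other probe set passed for hypoxia in L3.6pl at -0.88 (adjusted p = 0.00514), and between the lines it gave 0.25 in hypoxia (adjusted p = 0.296) and 0.88 in normoxia (adjusted p = 0.00284). IFIT1 had hypoxia values of -1.19 ± 0.327 in L3.6pl (adjusted p = 0.0548) and -0.59 ± 0.327 in FG (adjusted p = 0.323), and IFIT5 of -0.71 and -0.64. The other IFIT5 probe set missed the threshold in L3.6pl at -0.71 (adjusted p = 0.0501) and passed in FG at -0.84 (adjusted p = 0.0166). Of the 4 IFIT members, 1 was called lower in hypoxia in each line, against 2.97% of all genes in L3.6pl and 6.47% in FG. IFIT genes share sequence, and cross-hybridisation between their probes was not tested.

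The 2′-5′ oligoadenylate synthetases, which make the messenger that activates an RNA-cleaving enzyme, were higher in L3.6pl than in FG in normoxia for all 4 members, against 5.16% of all genes called higher. OAS1 had levels of 8.79, 8.82 and 9.24 in hypoxic L3.6pl cells, against 8.92, 8.79 and 9.04 in normoxic ones. Its levels were 7.10, 7.36 and 7.35 in hypoxic FG cells, against 7.94, 7.90 and 8.23 in normoxic FG cells. OAS1 thus overlapped between oxygen conditions in L3.6pl and stood apart by condition in FG. Its log2 fold change in hypoxia was 0.04 ± 0.146 in L3.6pl (adjusted p = 0.934) and -0.75 ± 0.146 in FG (adjusted p = 0.00854). Between the lines it was 1.68 ± 0.146 in hypoxia (fold 3.21, adjusted p = 3.6e-05) and 0.89 ± 0.146 in normoxia (fold 1.86, adjusted p = 0.00273). No omission of an array ended the OAS1 calls. Its other probe set missed the threshold for hypoxia in FG at -0.61 (adjusted p = 0.0538). Between the lines that probe set gave 1.70 in hypoxia (adjusted p = 0.000182) and 0.93 in normoxia (adjusted p = 0.00928).

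OAS3 had levels of 7.45, 7.33 and 7.21 in hypoxic L3.6pl cells, against 8.44, 7.91 and 7.96 in normoxic ones, and fell by 0.77 on the log2 scale (SE 0.155, adjusted p = 0.0145). On the FG arrays it had 6.95, 6.96 and 6.70 in hypoxia and 7.37, 7.14 and 7.52 in normoxia, a value of -0.48 ± 0.155 that missed the threshold (adjusted p = 0.0793). The groups did not overlap in either line. The L3.6pl call ended without L3.6pl hypoxia 2 (adjusted p = 0.0579). OAS2 levels were 5.73, 5.58 and 5.60 in hypoxic L3.6pl cells, against 5.95, 6.15 and 5.98 in normoxic ones, and 5.35, 5.32 and 5.39 in hypoxic FG cells, against 5.32, 5.48 and 5.57 in normoxic FG cells. All OAS2 values lay within the range of the blood and immune markers, and a filter on dim genes left it untested. OAS2 was lower in hypoxia in L3.6pl by a small amount (-0.39 ± 0.0946, adjusted p = 0.0341). That call ended at an adjusted p of 0.0503 to 0.149 without any L3.6pl array or without FG hypoxia 2 or FG normoxia 2. Another OAS2 probe set gave -0.91 (adjusted p = 0.0316). In normoxia OAS3 was higher in L3.6pl by 0.75 (adjusted p = 0.0103) and OAS2 by 0.57 (adjusted p = 0.00292). The other OAS3 probe set, which is dimmer, gave 0.09 in normoxia (adjusted p = 0.84).

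OASL, a relative without synthetase activity that enhances RNA sensing, had levels of 5.91, 5.99 and 6.23 in hypoxic L3.6pl cells, against 6.17, 6.42 and 6.45 in normoxic ones. In FG its levels were 6.21, 5.90 and 5.85 in hypoxia and 5.82, 5.85 and 5.93 in normoxia. The L3.6pl values were all above the FG values in normoxia and overlapped them in hypoxia. All OASL values lay within the range of the blood and immune markers. The difference in normoxia was 0.48 ± 0.127 (adjusted p = 0.0344), and it was lost at 0.0624 to 0.127 without any FG normoxia array or without L3.6pl normoxia 2 or 3.

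Among the dynamin-like GTPases, GBP1, a guanylate-binding protein that attacks pathogen membranes, had the largest rise of the members in FG. Its levels in L3.6pl were 7.61, 7.22 and 8.26 in hypoxia and 7.40, 7.95 and 8.18 in normoxia. In FG they were 8.50, 8.39 and 8.54 in hypoxia, against 6.50, 6.53 and 7.60 in normoxia. The hypoxic FG arrays were the highest of the 12 and close together, while normoxic FG arrays 1 and 2 were the lowest. GBP1 was 3.03-fold higher in hypoxia in FG (1.60 ± 0.329 on the log2 scale, adjusted p = 0.0114) and overlapped in L3.6pl (-0.15 ± 0.329, adjusted p = 0.869). Its other 3 probe sets gave 1.32 (adjusted p = 0.0146), 0.88 (0.0907) and 0.27 (0.117) in FG. Between the lines GBP1 was lower in L3.6pl in hypoxia (-0.78, adjusted p = 0.147, and 0.016 with the block) and higher in normoxia (0.97, adjusted p = 0.0962, and 0.00777 with the block).

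MX1, which traps viral nucleoproteins, had levels of 6.57, 6.73 and 7.07 in hypoxic L3.6pl cells, against 7.50, 7.31 and 7.12 in normoxic ones. In hypoxic FG cells it had 7.71, 7.66 and 7.62, against 6.80, 6.65 and 7.21 in normoxic FG cells. Hypoxic arrays were thus all below normoxic arrays in L3.6pl and all above them in FG. MX1 was 1.71-fold higher in hypoxia in FG (0.77 ± 0.166, adjusted p = 0.0139), while the L3.6pl value of -0.52 ± 0.166 missed the threshold (adjusted p = 0.0922). The FG call ended without FG hypoxia 2 or FG normoxia 2 (adjusted p 0.0532 to 0.0578). In hypoxia MX1 was lower in L3.6pl than in FG (-0.87 ± 0.166, adjusted p = 0.00461). MX2 was called in no comparison without the block.

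The ISG15 system, the ubiquitin-like protein with its attaching and removing enzymes, split in FG. ISG15 had levels of 8.36, 7.88 and 8.60 in hypoxic L3.6pl cells, against 8.86, 9.05 and 9.51 in normoxic ones. In hypoxic FG cells it had 9.81, 9.55 and 9.42, against 7.73, 8.53 and 8.94 in normoxic FG cells. The pattern is that of MX1, with the order of the oxygen conditions turned round between the lines and no overlap in either. ISG15 was 2.29-fold higher in hypoxia in FG (1.19 ± 0.294, adjusted p = 0.0266), and its L3.6pl value of -0.86 ± 0.294 missed the threshold (adjusted p = 0.114). Leaving out FG hypoxia 1, FG hypoxia 2, FG normoxia 1 or FG normoxia 2 ended the FG call (adjusted p 0.0527 to 0.0935). In hypoxia ISG15 was lower in L3.6pl than in FG, at a fold of 0.403 (-1.31 ± 0.294, adjusted p = 0.0113). In normoxia the line difference was 0.74, with an adjusted p of 0.161, or 0.0176 with the block.

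UBE2L6 and HERC5, which attach ISG15, were lower in hypoxia in FG, while HERC6 missed the threshold (-0.28, adjusted p = 0.237). UBE2L6, the E2 enzyme, had levels of 9.31, 8.98 and 9.60 in hypoxic L3.6pl cells, against 10.00, 9.73 and 9.80 in normoxic ones. Its FG levels were 7.88, 7.83 and 8.13 in hypoxia and 8.61, 8.34 and 8.65 in normoxia. The 4 groups did not overlap, with both L3.6pl groups above both FG groups. UBE2L6 was lower in hypoxia in FG (-0.59 ± 0.16, adjusted p = 0.0398), and the L3.6pl value was -0.55 ± 0.16 (adjusted p = 0.07). The FG call ended at 0.055 to 0.145 without FG hypoxia 1 or 2, FG normoxia 1 or 3, L3.6pl hypoxia 1, or L3.6pl normoxia 2 or 3. Between the lines UBE2L6 was 2.56-fold higher in L3.6pl in hypoxia (adjusted p = 0.000258) and 2.48-fold in normoxia (adjusted p = 0.000442), and both calls held without each array.

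HERC5, the main E3 ligase for ISG15, had levels of 6.40, 5.91 and 6.68 in hypoxic L3.6pl cells, against 7.16, 6.81 and 6.91 in normoxic ones. In FG it had 5.86, 5.78 and 5.85 in hypoxia, against 6.85, 6.81 and 6.86 in normoxia. The FG values were tight within each group and a factor of 0.498 apart (-1.01 ± 0.167, adjusted p = 0.00397), a call that held without each array. In L3.6pl the value was -0.63 ± 0.167 (adjusted p = 0.0494). That call stood at the threshold and ended at 0.0668 to 0.133 without any 1 array other than FG normoxia 1 or L3.6pl hypoxia 3. USP18, which removes ISG15 and dampens the interferon receptor, had 5.70, 5.37 and 5.70 in hypoxic L3.6pl cells, against 6.29, 6.33 and 6.58 in normoxic ones. Its FG levels overlapped, with 5.72, 5.50 and 5.56 in hypoxia and 5.33, 5.68 and 6.01 in normoxia. All USP18 values lay within the range of the blood and immune markers. USP18 was lower in hypoxia in L3.6pl (-0.81 ± 0.169, adjusted p = 0.0163) and higher in L3.6pl than in FG in normoxia (0.73 ± 0.169, adjusted p = 0.0187). The hypoxia call was lost at 0.0571 to 0.0765 without L3.6pl hypoxia 2 or L3.6pl normoxia 2 or 3, and the line call at 0.0514 to 0.0794 without FG normoxia 2 or L3.6pl normoxia 2 or 3. HERC6 was called in no comparison.

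**Figure D5:**
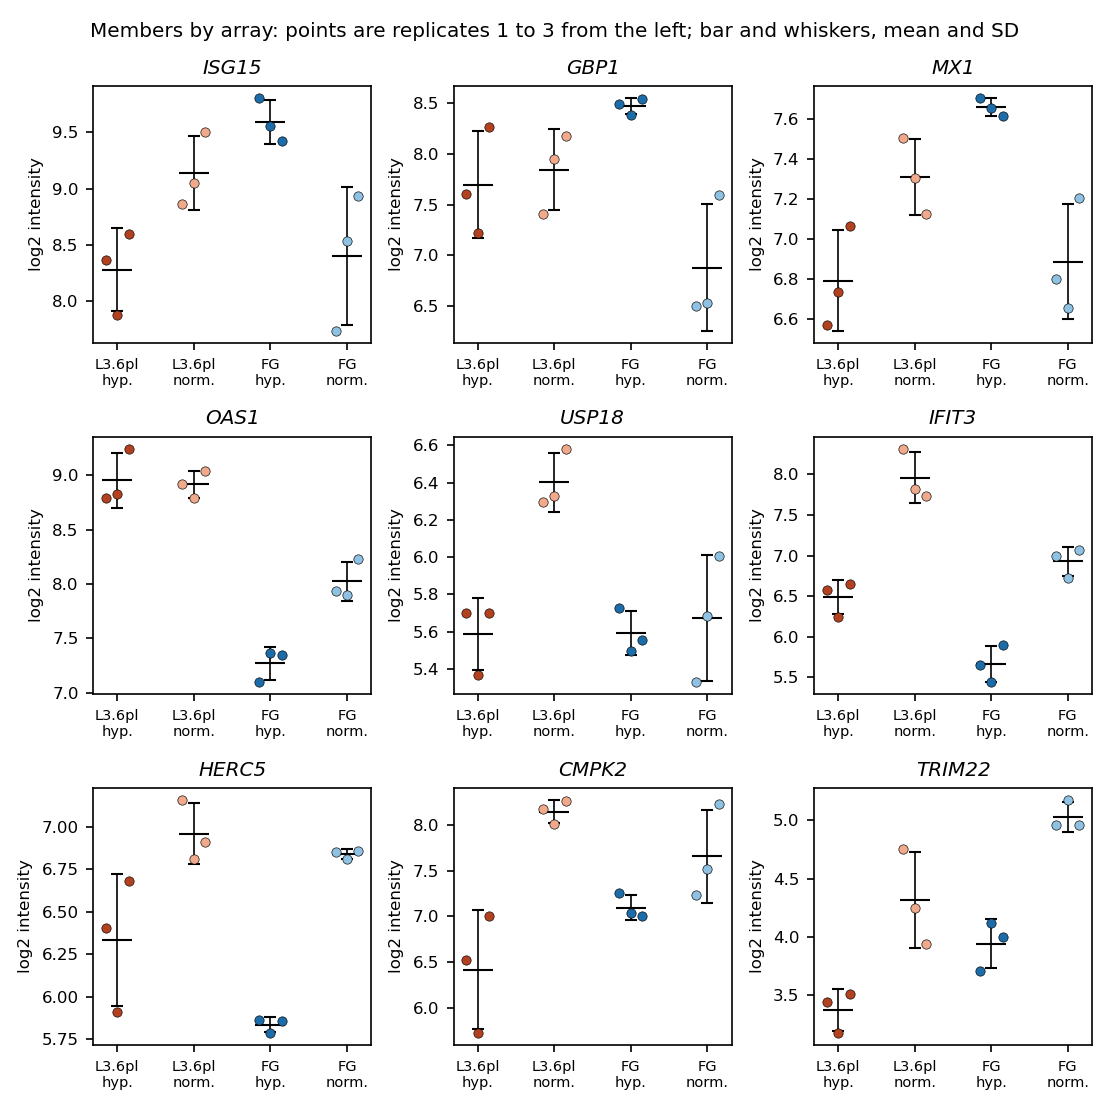
Log2 intensity of 9 members on each array, with points for replicates 1 to 3 from left to right and bars for the mean and SD of each group. ISG15, GBP1 and MX1 have their highest mean in hypoxic FG cells, OAS1 is lower in hypoxia in FG and overlaps in L3.6pl, and IFIT3, HERC5 and TRIM22 are lower in hypoxia in both lines.

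Of the nucleotide and RNA effectors, CMPK2, a mitochondrial nucleotide kinase, had the largest fall in L3.6pl. Its levels there were 6.53, 5.72 and 7.01 in hypoxia, against 8.17, 8.0 and 8.26 in normoxia. In FG they were 7.25, 7.03 and 7.0 in hypoxia and 7.23, 7.51 and 8.22 in normoxia. The groups stood apart in L3.6pl and overlapped in FG. CMPK2 was at a fold of 0.303 in L3.6pl (-1.72 ± 0.306, adjusted p = 0.00806), a call kept without each array, and at -0.56 ± 0.306 in FG (adjusted p = 0.316). ISG20, an RNA exonuclease, had 8.42, 9.08 and 8.89 in hypoxic L3.6pl cells, against 8.38, 7.37 and 7.73 in normoxic ones. Its FG levels were 7.24, 7.70 and 7.84 in hypoxia, against 7.14, 6.11 and 6.63 in normoxia. Every hypoxic array was above every normoxic array in both lines, which held for no other member. Of all genes, 11.5% had this order in L3.6pl and 10.9% in FG, and the share with both was not computed. The ISG20 values of 0.96 ± 0.311 in L3.6pl (adjusted p = 0.0954) and 0.97 ± 0.311 in FG (adjusted p = 0.0751) missed the threshold. Its other probe set passed in FG at 1.02 (adjusted p = 0.0482). ISG20 was higher in L3.6pl than in FG by 1.20 in hypoxia (adjusted p = 0.0231) and in normoxia (adjusted p = 0.0317). Those calls were lost at 0.0589 to 0.093 without FG hypoxia 1 or 2 or L3.6pl hypoxia 2 or 3, and at 0.0743 to 0.122 without FG normoxia 2 or 3 or L3.6pl normoxia 1 or 3. RSAD2, or viperin, and SAMD9 were called in no comparison without the block. A dimmer RSAD2 probe set was higher in L3.6pl than in FG in normoxia (1.01, adjusted p = 0.0243).

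TRIM22, a RING-domain antiviral factor, was lower in hypoxia in both lines, at intensities near the bottom of the array's range. Its levels were 3.44, 3.17 and 3.51 in hypoxic L3.6pl cells, against 4.76, 4.24 and 3.94 in normoxic ones. In FG they were 3.71, 4.12 and 4.0 in hypoxia, against 4.96, 5.18 and 4.96 in normoxia. The groups did not overlap, and the values lay within the range of the blood and immune markers above. TRIM22 changed by -0.94 ± 0.193 in L3.6pl (adjusted p = 0.0156) and by -1.09 ± 0.193 in FG (adjusted p = 0.00548). The L3.6pl call ended without L3.6pl hypoxia 2 or L3.6pl normoxia 2 (adjusted p 0.0564 to 0.0742), and the FG call held without each array. In normoxia it was lower in L3.6pl than in FG (-0.72 ± 0.193, adjusted p = 0.0379). This line call was lost at 0.05 to 0.136 without FG hypoxia 2 or 3, any FG normoxia array, L3.6pl hypoxia 1, or L3.6pl normoxia 2 or 3.

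Of the 8 other induced genes, TRIM22 among them, 3 were higher in L3.6pl than in FG in hypoxia, and 4 were higher and 1 lower in normoxia. Of all genes, 10.0% were called higher in hypoxia, and 5.16% higher and 5.54% lower in normoxia. IFI6, which stabilises mitochondria, had levels of 7.56, 7.33 and 8.03 in hypoxic L3.6pl cells and 7.67, 7.33 and 7.93 in normoxic ones, against 6.46, 6.69 and 6.94 in hypoxic FG cells and 6.66, 6.46 and 6.81 in normoxic FG cells. Every L3.6pl array was above every FG array, and the oxygen conditions overlapped in both lines. It was 1.92-fold higher in L3.6pl in hypoxia (adjusted p = 0.00986) and 2.00-fold higher in normoxia (adjusted p = 0.0107). IFI35 had levels of 7.86, 7.70 and 8.40 in hypoxic L3.6pl cells and 8.15, 8.54 and 8.78 in normoxic ones, against 6.67, 6.33 and 6.74 in hypoxic FG cells and 6.92, 7.43 and 7.54 in normoxic FG cells. It was also above FG on every L3.6pl array, by 2.65-fold in hypoxia (adjusted p = 0.00193) and 2.29-fold in normoxia (adjusted p = 0.00749). The line calls of both genes held without each array.

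IFI44 had levels of 8.49, 8.09 and 8.63 in hypoxic L3.6pl cells and 8.86, 8.87 and 9.13 in normoxic ones, against 7.75, 7.41 and 8.16 in hypoxic FG cells and 7.59, 8.13 and 8.45 in normoxic FG cells. IFI44L had 4.92, 4.80 and 5.14 in hypoxic L3.6pl cells and 6.58, 5.02 and 5.29 in normoxic ones, against 4.17, 4.56 and 4.67 in hypoxic FG cells and 4.49, 3.85 and 3.79 in normoxic FG cells. L3.6pl normoxia 1 stood well above the other arrays for IFI44L. In normoxia IFI44L was higher in L3.6pl by 1.59 ± 0.35 (adjusted p = 0.0149) and IFI44 by 0.89 ± 0.242 (adjusted p = 0.0383). All IFI44L values lay within the range of the blood and immune markers, and a filter on dim genes left it untested, so the size of its difference is uncertain. The other IFI44 probe set gave 0.42 (adjusted p = 0.48). The IFI44L call was lost at 0.0517 to 0.0597 without FG normoxia 2 or 3, and without L3.6pl normoxia 1 the value was smaller but still called. The IFI44 call was lost at 0.0544 to 0.134 without FG hypoxia 1, FG normoxia 1 or 2, L3.6pl hypoxia 1, or any L3.6pl normoxia array, and at 0.0969 without FG normoxia 1, L3.6pl normoxia 1 and L3.6pl hypoxia 3 together. IFI16, a nuclear DNA sensor, had 9.86, 10.16 and 10.67 in hypoxic L3.6pl cells and 10.32, 10.09 and 10.06 in normoxic ones, against 9.26, 9.38 and 9.75 in hypoxic FG cells and 10.21, 9.68 and 9.40 in normoxic FG cells. It was higher in L3.6pl in hypoxia by 0.77 ± 0.238 (adjusted p = 0.0498). That call was lost at 0.0605 to 0.163 without FG hypoxia 1 or 2, FG normoxia 2, L3.6pl hypoxia 2 or 3, or any L3.6pl normoxia array. IFI27 and XAF1 were called in no comparison.

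The membrane restriction factors ran the other way between the lines: 3 of 4 were lower in L3.6pl in normoxia and 2 of 4 in hypoxia, against 5.54% and 6.72% of all genes. IFITM1, which blocks fusion of viruses with the cell membrane, had levels of 12.13, 12.09 and 12.45 in hypoxic L3.6pl cells and 12.32, 12.16 and 11.98 in normoxic ones, against 13.18, 13.04 and 13.25 in hypoxic FG cells and 12.93, 13.19 and 13.11 in normoxic FG cells. Every L3.6pl array was below every FG array, and the oxygen conditions overlapped in each line. The difference was -0.93 ± 0.129 in hypoxia (adjusted p = 0.00066) and -0.92 ± 0.129 in normoxia (adjusted p = 0.00105), and neither call depended on an array. IFITM2 had 12.71, 12.66 and 12.66 in hypoxic L3.6pl cells and 12.71, 12.63 and 12.42 in normoxic ones, against 13.00, 13.04 and 13.05 in hypoxic FG cells and 12.91, 12.94 and 12.87 in normoxic FG cells. Its differences of -0.35 in hypoxia (adjusted p = 0.0185) and -0.32 in normoxia (adjusted p = 0.0424) were small. They were lost at 0.051 to 0.0619 without FG hypoxia 2 or 3 or L3.6pl hypoxia 2, and at 0.0555 to 0.152 without any 1 array other than L3.6pl hypoxia 3 or L3.6pl normoxia 1. The normoxia call was also lost, at 0.0519, without FG normoxia 1, L3.6pl normoxia 1 and L3.6pl hypoxia 3 together. The IFITM genes are close in sequence, so their probe sets may share signal and their values are uncertain.

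BST2, or tetherin, which holds budding virus at the cell surface, had levels of 5.80, 5.88 and 6.19 in hypoxic L3.6pl cells and 6.77, 5.89 and 6.25 in normoxic ones, against 6.56, 6.65 and 6.48 in hypoxic FG cells and 7.25, 7.31 and 7.07 in normoxic FG cells. It was lower in L3.6pl in normoxia by -0.91 ± 0.192 (adjusted p = 0.0119), with no overlap. In hypoxia the difference of -0.61 ± 0.192 missed the threshold (adjusted p = 0.0519, and 0.0289 with the block). Its hypoxia values were -0.35 in L3.6pl (adjusted p = 0.34) and -0.65 in FG (adjusted p = 0.0566).

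Of the 3 RNA sensors and the 3 measured transcription factors, none passed the hypoxia test in either line, and 1 of each passed between the lines in hypoxia. Of all genes, 6.86% were called for hypoxia in L3.6pl, 10.7% in FG and 16.7% between the lines in hypoxia, so such small groups decide little. DDX60, a helicase that assists RNA sensing, had levels of 6.11, 6.32 and 6.54 in hypoxic L3.6pl cells and 6.57, 6.63 and 6.62 in normoxic ones, against 7.17, 7.19 and 7.33 in hypoxic FG cells and 6.58, 7.01 and 7.11 in normoxic FG cells. It was lower in L3.6pl in hypoxia (-0.91 ± 0.146, adjusted p = 0.00167), a call that held without each array. The helicases IFIH1 and RIGI, which detect viral RNA in the cytoplasm, were called in no comparison. A dimmer RIGI probe set was lower in hypoxia by -0.93 in L3.6pl (adjusted p = 0.00563) and -0.65 in FG (adjusted p = 0.0184), whereas the brightest one gave -0.17 and -0.40. The remaining RIGI probe set gave -0.62 (adjusted p = 0.183) and 0.25 (adjusted p = 0.607), and was higher in L3.6pl in normoxia by 0.97 (adjusted p = 0.0351), so the RIGI result depends on the probe set. IRF9 had levels of 8.73, 8.72 and 8.65 in hypoxic L3.6pl cells and 8.63, 8.24 and 8.35 in normoxic ones, against 7.38, 7.57 and 7.94 in hypoxic FG cells and 8.23, 7.45 and 7.57 in normoxic FG cells. Every L3.6pl array was above every FG array. IRF9 was 2.09-fold higher in L3.6pl in hypoxia (adjusted p = 0.00495), and in normoxia the difference of 0.65 had an adjusted p of 0.0727, or 0.00937 with the block. IRF1 and IRF7 were called in no comparison without the block. The other IRF1 probe set, which is dimmer, was lower in hypoxia in FG (-0.41, adjusted p = 0.0356). It was also higher in L3.6pl than in FG in hypoxia (0.43, adjusted p = 0.026), so the IRF1 result depends on the probe set.

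Whether the hypoxia effect differed between the lines was tested directly as the difference of both effects, L3.6pl minus FG. Limma called 0 members (9 had an unadjusted p below 0.05), and 0.0253% of all genes, or 5 (0.0152% higher and 0.0101% lower). With the replicate number as a block within each oxygen condition, 6 members and 3.55% of all genes were called, 2.54% higher and 1.01% lower. ISG15 differed by -2.05 (SE 0.416, adjusted p = 0.131 without the block, and 0.0123 with it), GBP1 by -1.75 (0.313 and 0.0212), MX1 by -1.29 (0.086 and 0.0303), IFI44L by -1.10 (0.69 and 0.0485) and USP18 by -0.73 (0.462 and 0.0396). For these 5 members the hypoxia value was lower in L3.6pl than in FG. OAS1 went the other way at 0.79 (0.3 and 0.0289). Without FG normoxia 3, MX1 alone was called with no block (-1.45, adjusted p = 0.0448). A block by replicate number over all 12 arrays called 0 members and 13 genes, and array quality weights with no block called 4 members and 421 genes. The calls therefore rest on the form of the model, and the labels do not say what the replicate number marks.

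Interferon genes themselves and the receptors were read from further lists. Of 13 measured ligands, including IFNB1, limma called 0 in either hypoxia comparison, against 6.86% of all genes in L3.6pl and 10.7% in FG. The unadjusted p was below 0.05 for 0 in L3.6pl and 2 in FG. Between the lines limma called only IFNE, in hypoxia, which is 7.69% of the list against 16.7% of all genes. In normoxia it called 0, against 10.7%. IFNE, an interferon of epithelia, had 5.08, 4.90 and 4.33 in hypoxic L3.6pl cells, against 3.61, 3.38 and 3.76 in hypoxic FG cells (1.18 ± 0.264, adjusted p = 0.0109). These are low intensities, within the range of the immune markers. The receptors and kinases were higher in L3.6pl for 5 of 10 measured genes in hypoxia and 4 of 10 in normoxia, against 10.0% and 5.16% of all genes, and limma called 0 lower, against 6.72% and 5.54%. At an unadjusted p below 0.05 there were 7 in hypoxia and 5 in normoxia in either direction. The type I receptor chain IFNAR1 was higher by 1.18 ± 0.176 in hypoxia (adjusted p = 0.00106) and 0.82 ± 0.176 in normoxia (adjusted p = 0.0133). IFNGR2, a chain of the interferon gamma receptor, was higher by 1.80 ± 0.156 (adjusted p = 3.63e-05) and 1.25 ± 0.156 (adjusted p = 0.000518). IFNAR2, JAK1 and TYK2 were not called in these comparisons.

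Hypoxia raised 2 of the 10 receptor and kinase genes in L3.6pl, against 3.89% of all genes, and lowered 2 in FG, against 6.47%. In L3.6pl these were IFNGR2 (0.73, adjusted p = 0.0184) and IL10RB (0.74, adjusted p = 0.0414), a shared chain of the type III receptor. In FG they were JAK2 (-0.46, adjusted p = 0.00515) and IFNAR1 (-0.65, adjusted p = 0.0392). The IFNGR2 call was lost at 0.0548 to 0.0837 without L3.6pl hypoxia 2 or L3.6pl normoxia 1 or 2. The IL10RB call was lost at 0.0519 to 0.164 without any L3.6pl array, FG hypoxia 2, or FG normoxia 2 or 3, and at 0.0858 without FG normoxia 1, L3.6pl normoxia 1 and L3.6pl hypoxia 3 together. The IFNAR1 call was lost at 0.0521 to 0.135 without any 1 array other than FG hypoxia 3 or L3.6pl hypoxia 2 or 3, while the JAK2 call held without each array. Of 12 upstream sensors and adaptors, 1 was called lower in each line in hypoxia, TRIM25 in L3.6pl (-0.77, adjusted p = 0.0242) and TBK1 in FG (-0.69, adjusted p = 0.044). That is 8.33% of the list in each line, against 6.86% of all genes called in L3.6pl and 10.7% in FG. The TRIM25 call was lost at 0.0778 to 0.0786 without L3.6pl hypoxia 1 or 2 or L3.6pl normoxia 1 or 2, and the TBK1 call at 0.0577 to 0.164 without FG hypoxia 1 or 2, FG normoxia 2 or 3, L3.6pl hypoxia 2 or any L3.6pl normoxia array. Between the lines STING1 was higher in L3.6pl in hypoxia (0.96, adjusted p = 0.00529), and in normoxia CGAS was higher (0.79, adjusted p = 0.0178) and IRF3 lower (-0.56, adjusted p = 0.0112). These calls are 8.33% of the list in hypoxia, against 16.7% of all genes, and 16.7% in normoxia, against 10.7%. Without L3.6pl normoxia 2 or 3 the CGAS call was lost (0.0714 to 0.0753). All CGAS values lay within the range of the blood and immune markers, and a filter on dim genes left it untested. Of 9 negative regulators, hypoxia called 2 lower in L3.6pl and 1 higher in FG. These are 22.2% of the list in L3.6pl, against 6.86% of all genes, and 11.1% in FG, against 10.7%. In L3.6pl these were USP13 (-0.75, adjusted p = 0.0146) and PTPN11 (-0.44, adjusted p = 0.0292). The USP13 call was lost at 0.0628 to 0.0708 without L3.6pl hypoxia 2 or L3.6pl normoxia 2, and the PTPN11 call at 0.0541 to 0.118 without L3.6pl hypoxia 1 or 2 or L3.6pl normoxia 1 or 2, and at 0.0655 without FG normoxia 1, L3.6pl normoxia 1 and L3.6pl hypoxia 3 together. SOCS3, a feedback inhibitor of cytokine signalling, rose in FG (0.73, adjusted p = 0.0272, or 0.0689 to 0.0952 without any FG hypoxia array or FG normoxia 2 or 3).

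A second list of antiviral genes outside the members had 27 measured genes. In hypoxia 1 was higher and 6 lower in L3.6pl, which is 25.9% of the list against 6.86% of all genes, and 1 was higher and 7 lower in FG, which is 29.6% against 10.7%. ZC3HAV1, the zinc-finger antiviral protein, was lower in both lines, by -0.69 ± 0.123 in L3.6pl (adjusted p = 0.00807) and -1.28 ± 0.123 in FG (adjusted p = 0.000221). PARP9 was likewise lower, by -0.88 (adjusted p = 0.0177) and -1.20 (adjusted p = 0.00293), and TRIM14 by -0.99 (adjusted p = 0.01) and -0.83 (adjusted p = 0.0159). SP100, a nuclear body protein, was higher in both, by 0.77 (adjusted p = 0.00617) and 0.61 (adjusted p = 0.0131). Single arrays ended 3 of these 8 calls: PARP9 in L3.6pl at 0.056 to 0.079 without L3.6pl hypoxia 1 or 2 or L3.6pl normoxia 1 or 2, TRIM14 in FG at 0.051 to 0.071 without FG hypoxia 2 or 3 or FG normoxia 3, and SP100 in FG at 0.056 without FG normoxia 2. Between the lines 13 were higher and 2 lower in L3.6pl in hypoxia (55.6%, against 16.7% of all genes), and 9 higher and 2 lower in normoxia (40.7%, against 10.7%). TNFSF10, the death ligand TRAIL, led with 3.19 ± 0.336 in hypoxia (adjusted p = 0.000127) and 2.78 ± 0.336 in normoxia (adjusted p = 0.000404), while EPSTI1 was lower by -2.21 and -2.03. Of 14 genes induced mainly by interferon gamma, hypoxia called 1 in L3.6pl, IDO1, which was lower. In FG it called 0 (unadjusted p below 0.05 for 5), against 10.7% of all genes. Between the lines GBP2 was higher in L3.6pl in hypoxia and CXCL11 in normoxia. Each call is 7.14% of the list, against 6.86% of all genes for hypoxia in L3.6pl, and 16.7% and 10.7% between the lines in hypoxia and normoxia. These calls were lost without 10 of the 12 arrays in turn for IDO1 (all but FG normoxia 1 and L3.6pl hypoxia 3) and CXCL11 (all but L3.6pl hypoxia 1 and 3), and for GBP2 without FG hypoxia 1 or 2 or L3.6pl hypoxia 2 or 3, at adjusted p up to 0.18, 0.172 and 0.122.

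Over all 5 comparisons without the block, by the probe set standing for each gene, 25 members were called in at least 1. The other 13 were called in none: RIGI, IFIH1, IRF1, IRF7, IFIT1, IFIT5, MX2, IFITM3, HERC6, RSAD2, SAMD9, IFI27 and XAF1. The share of all genes called in at least 1 comparison was not computed. Single comparisons called 0.0253% to 16.7% of all genes. Among these 13, the hypoxia values ran from -1.19 (IFIT1) to 0.18 (IRF7) in L3.6pl and from -0.94 (SAMD9) to 0.60 (IFI27) in FG. The line differences ran from -0.36 (HERC6) to 0.55 (SAMD9) in hypoxia and from -0.36 (HERC6) to 0.68 (IFIT1) in normoxia. Of the 46 calls without the block, 27 held when any 1 array was left out, and no omission moved a called member's fold by more than 1.39 times. Of the 38 members, 18 had more than 1 probe set. In the 19 calls of members with several probe sets, all probe sets had the same sign.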

How the data were processed

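Expression was measured on 12 arrays. The authors deposited a linear intensity for each probe set after RMA, per the submitters' processing notes, with the RMA version and the step back to a linear scale not given in the sources used here. From each deposited intensity the log2 value was computed. The medians of the arrays lay between 39.1 and 41.4, and the values were not normalized again. Precision is limited by the number of arrays. Of 54675 probe sets, 41091 had exactly 1 gene in the platform annotation, 1801 several and 11721 none, and 62 were controls. The brightest probe set stood for each of 19775 genes.

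All 12 arrays entered 1 model of 4 group means, fitted with limma 3.58.1 (lmFit and eBayes, 8 residual and 2.72 prior degrees of freedom) in R 4.3.3, with Benjamini-Hochberg adjustment. This model was tested on simulated data in which the arrays varied independently. Arrays that deviate together, and the fits with a block, were not simulated. The 5 comparisons were hypoxia against normoxia in each line, L3.6pl against FG in each condition, and the difference of the hypoxia effects. The labels give replicate numbers but do not say what they mark. Deviations of same-numbered arrays correlated at 0.528 to 0.735 between the lines in normoxia and at 0.358 to 0.462 in hypoxia, above the minimum of 0.1 for every pair, so these comparisons are also given with a block. Between oxygen conditions some correlations were negative (-0.217 to 0.413), and no pairing was taken. Alternatives covered probe set choice, normalization, filters, thresholds, weights, blocks and each array left out. The members and the further lists were chosen with earlier results of these data known. Per-array values are given for members called in at least 1 comparison. From the further lists, genes called (up to 4 with the smallest adjusted p) and the main receptor genes were named, and of the 13 members never called only some have values. Promoters are RefSeq sequences of GRCh38.p14, matched by gene.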

Additional observations from a re-analysis of the deposited data

Results flagged for a closer look

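In 3 members every hypoxic array lay below every normoxic array in L3.6pl and above every normoxic array in FG. Of all genes, 12.8% lay below in L3.6pl and 10.9% above in FG. The share of all genes with both was not computed, so whether 3 members is unusual is not known. The difference of the hypoxia effects, L3.6pl minus FG, was -2.05 for ISG15 (adjusted p = 0.131, and 0.0123 with the replicate number as a block within each oxygen condition), -1.29 for MX1 (0.086 and 0.0303) and -0.61 for DDX60 (0.469 and 0.0786). The hypoxia effects of DDX60 on their own, -0.28 in L3.6pl and 0.33 in FG, did not pass the test.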

How the results depend on the processing

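The number of members called moved with the setting, while no call turned its direction. With array quality weights, 19 members were called for hypoxia in L3.6pl, 15 in FG, 29 and 23 between the lines in normoxia and in hypoxia, and 4 for the difference of the effects, while the counts over all 19775 genes were 5192, 5729, 6623, 4604 and 421. A log2 fold change of at least 1 left 2, 5, 6 and 7 members in the first 4 of these comparisons (537, 850, 884 and 1342 of all genes), and an adjusted p below 0.01 left 2, 4, 7 and 8 (475, 860, 1025 and 1718). Using only the arrays of the groups compared gave 4 in L3.6pl and 11 between the lines in normoxia (797 and 1991 of all genes). In the setting added after the data were seen, without FG normoxia 1, L3.6pl normoxia 1 and L3.6pl hypoxia 3, 18 and 16 were called for hypoxia in L3.6pl and FG (4179 and 3871 of all genes). The replicate block over all arrays gave 12 for hypoxia in L3.6pl (2130 of all genes) and 0 for the difference of the effects (13 of all genes), and the added block within each oxygen condition gave 25 between the lines in hypoxia and 6 for the difference of the effects (5935 and 703 of all genes). Omission of each array in turn gave 2 to 12 in L3.6pl and 5 to 12 in FG. Between the lines it gave 10 to 18 in normoxia and 10 to 17 in hypoxia, and for the difference 0 to 1. In the same order, the all-gene counts ran from 508 to 2436, 1029 to 2899, 1254 to 2626, 2142 to 3813 and 2 to 23.

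The median log2 fold change of the members kept its sign in every setting, between -0.45 and -0.25 for hypoxia in L3.6pl and between -0.29 and -0.06 in FG. A filter on dim genes left 31 members and did not test TRIM22, among others. Of 2799 alternative values for 114 calls of the members and further lists, 2281 kept the call, 518 lost it and 0 turned direction.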
